A study of Mus musculus with 8 samples.

Results

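The glycolysis and hypoxia response genes described here are 35 genes that were taken by symbol from the deposited gene counts. They comprise 23 genes of glucose uptake and glycolysis, including lactate and pyruvate fate and the enzymes of fructose 2,6-bisphosphate, and 12 genes of the hypoxia response, namely 4 genes of the hypoxia-inducible factor (HIF) system and 8 other hypoxia targets. All 35 were found among 23284 symbols, and 33 of them passed the filter on low counts that left 12430 genes for testing. The cells are ID8 IP2, a mouse ovarian surface epithelial tumor line derived from ID8 by passage through C57BL/6 mice. Notch3IC lines received a pCCL lentiviral vector for the HA-tagged intracellular domain of Notch3, codons 1664 to 2318, followed by IRES-GFP, whereas Control lines received pCCL without an insert. RNA-sequencing covered 4 sets (Sets 1 to 4), each a separate infection with its own Control line, so that there were 4 libraries per condition and 8 in all. All lines grew in the same medium, and the study's methods describe a luciferase-mCherry vector in ID8 IP2 cells. From later testing, the methods propose that every ID8 IP2 line was positive for mycoplasma. No exposure to low oxygen is described for any library, and Notch3IC signals without ligand, so the lines model constant rather than ligand-driven Notch3 activity.

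Glycolysis splits glucose into pyruvate in the cytosol and yields ATP, and many tumor cells turn that pyruvate into lactate even when oxygen is present. HIF is a dimer of an oxygen-regulated alpha subunit, encoded by Hif1a or Epas1, and a stable partner. When oxygen is ample, prolyl hydroxylases of the Egln family mark the alpha subunits for destruction, and when oxygen is scarce the dimer induces glucose transporters, glycolytic enzymes, carbonic anhydrases and Egln3 itself. The alpha subunits are controlled mainly as proteins, which messenger RNA counts do not measure.

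The labels were first checked against the inserted gene. Notch3 was at 38.6, 40.6, 70.8 and 42.0 normalized counts in Control Sets 1 to 4 and at 4319, 467, 9215 and 5839 in the matched Notch3IC libraries, where a normalized count is the count scaled to a common library size. The rise was 6.69 on the log2 scale with a standard error (SE) of 0.88 and an adjusted p of 0.0169 (edgeR quasi-likelihood test, Benjamini-Hochberg adjustment over all genes tested). Within sets the log2 ratio of Notch3IC over Control was 6.79, 3.51, 7.01 and 7.10, so Set 2 had by far the smallest rise. Hey1, a direct Notch target, had its smallest log2 ratio in Set 2 as well, 4.40 against 7.08 to 7.86 in Sets 1, 3 and 4.

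Markers of the labelled tissue were partly present. Of 11 markers of ovarian surface epithelium, Wt1, Upk3b, Krt8 and Krt18 were abundant, while Epcam had at most 12 counts and Krt7 at most 46 in any library. The markers also moved with the condition. Msln, which encodes mesothelin, fell in Notch3IC lines by 2.60 on the log2 scale (SE 0.63, adjusted p = 0.0625, edgeR), and 8 of the 9 epithelial markers tested had lower values there. Of these 9, edgeR called 1 lower, against 0.74% of all genes tested, or 3 (33.3%) with the set as a replicate block, against 2.53%. DESeq2 without the block called 4, against 753 of all 12430 genes in either direction. The summed level of the 11 markers was 23294.5, 42359, 65455 and 63614 normalized counts in the Control libraries and 8222, 27858, 25929.7 and 19953 in the Notch3IC libraries, with Upk3b the most abundant. Of 6 fibroblast markers 4 were tested, and 2 had at most 10 counts in any library. Of those tested, 3 had higher values in Notch3IC lines, of which Postn was called, and with the replicate block 2 were called higher (edgeR). Dcn was at -0.47 (adjusted p = 0.809, or 0.028 with the replicate block, edgeR) and lower in all 4 sets. The sum of the 6, led by Col1a1, was 143391, 106127, 80340 and 64635 in Control and 271081, 131386, 161407 and 194719 in Notch3IC libraries. Defining leukocyte and endothelial genes were at or near 0, with at most 2 counts of Ptprc, Cd3e, Itgam, Cdh5, Tek or Emcn in any library. The 8 leukocyte markers summed to 56.5 to 128 normalized counts per library, led by Cd68, and the 6 endothelial markers to 12.7 to 51.4, led by Pecam1. Of the 2 leukocyte markers that were tested, Csf1r, with 7 to 36 counts, was called higher, against 3.4% of all genes (edgeR). In such bulk libraries fewer cells of a type and less RNA per cell cannot be told apart, and what part these marker shifts have in the values of the glycolysis and hypoxia genes was not tested.

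Notch3IC lines differed from Control lines in 3 of the 33 members tested. Epas1, which encodes the HIF-2 alpha subunit, and Ddit4, which encodes a stress-induced inhibitor of mTORC1, were higher. Egln3, which encodes a HIF prolyl hydroxylase, was lower. None of the 22 glycolysis genes tested was called. To be called, a gene needed an adjusted p under 0.1 together with a fold limit, a log2 fold change of 1 or more in either direction. By that rule 2 members (6.06%) were higher against 3.4% of all genes tested, and 1 member (3.03%) was lower against 0.74%. Without the fold limit 5 members (15.2%) had an adjusted p under 0.1 against 6.69% of all genes, namely Epas1, Ddit4 and Hk1 on the higher side and Egln3 and Ero1l on the lower side. With the set as a replicate block the same rule took in 12 members (36.4%) against 27.1% of all genes, 4 higher and 8 lower. The 4 Control and 4 Notch3IC libraries did not overlap for 7 members (21.2%) against 10.8% of all genes. With the block and the fold limit together, 6.06% of members were higher and 3.03% lower, close to the 5.19% and 2.53% of all genes. The share of members was above that of all genes under each of these rules, by little under the last, and no test of that difference was made.

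**Figure D1:**
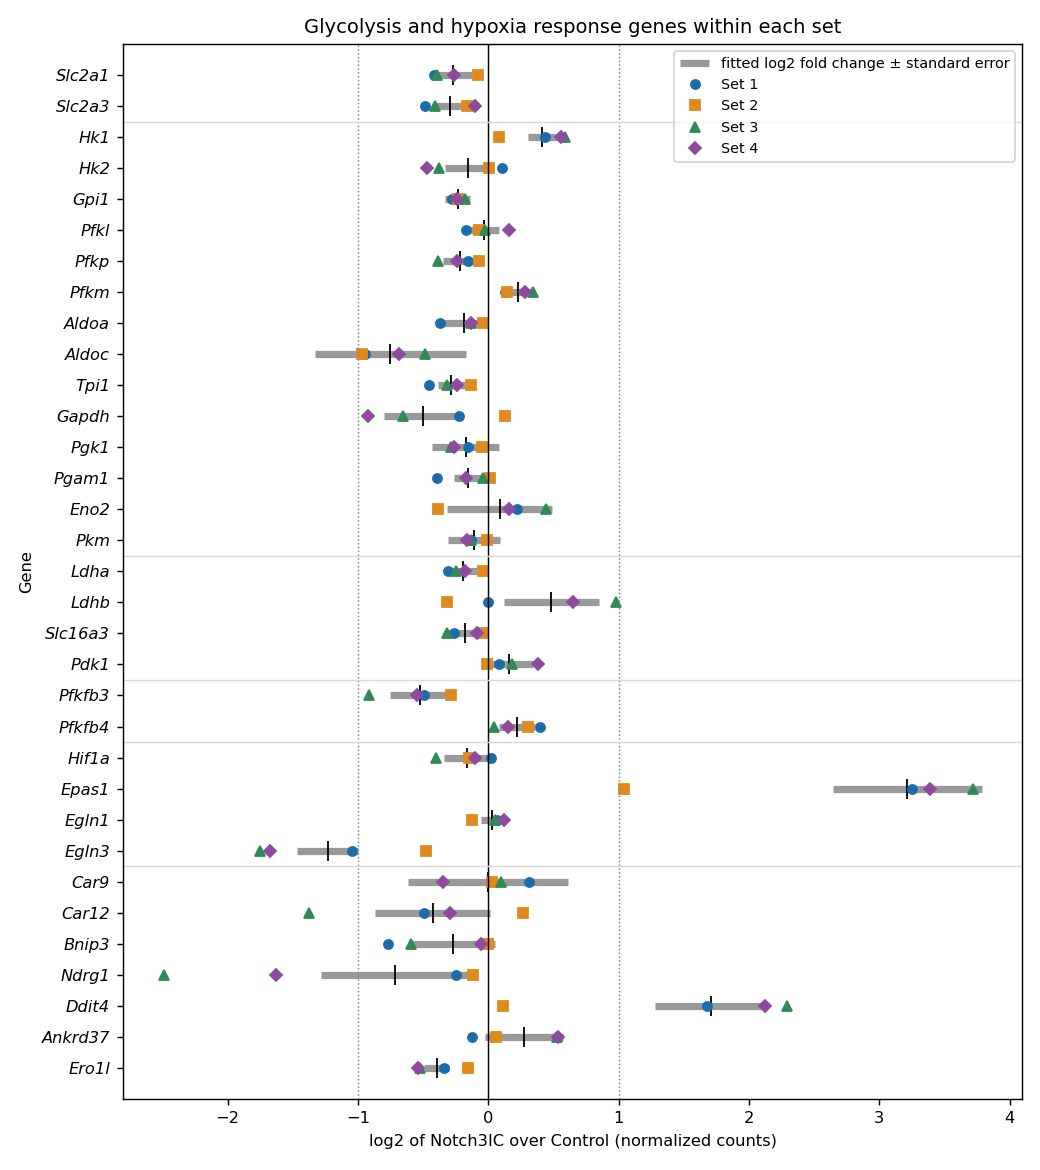
Log2 ratio of Notch3IC over Control normalized counts within each set (points, one marker shape per set) and the fitted log2 fold change with its standard error (black tick and grey bar) for the 33 members tested, ordered by role, with dotted lines at -1 and 1. Epas1 and Ddit4 lie far to the right and Egln3 to the left, with Set 2 nearest to 0 for all 3, whereas 20 of the 22 glycolysis genes have fitted values within 0.5 of 0.

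Of the HIF alpha subunits, Epas1 was called and Hif1a was not. Epas1 was at 26.8, 27.4, 34.4 and 38.0 normalized counts in Control Sets 1 to 4 and at 259, 57.1, 460.5 and 404 in the Notch3IC lines of those sets. Every Notch3IC library lay above every Control library, and Set 2 stood well below the other Notch3IC lines. The means were 31.7 ± 5.5 and 295 ± 180 (SD, n = 4 each). The rise was 3.21 on the log2 scale (SE 0.57, adjusted p = 0.028, edgeR), with log2 ratios of 3.25, 1.04, 3.72 and 3.39 within Sets 1 to 4. Hif1a, which encodes the more widely expressed HIF-1 alpha subunit, ranged from 9866 to 15824 normalized counts in Control and from 10009 to 14292 in Notch3IC libraries, with a log2 fold change of -0.16 (SE 0.18, adjusted p = 0.696, edgeR). Its level stayed far above that of Epas1. Per transcript length, Hif1a stood at 115 ± 23 CPM per kb in Control (counts per 1000000 scaled counts and per kb of transcript) and 103 ± 18 in Notch3IC lines, and Epas1 at 0.25 ± 0.04 and 2.29 ± 1.40 (SD, n = 4). Epas1 therefore made up 0.22% ± 0.05 of the summed per-length level of both alpha subunits in Control lines and 2.33% ± 1.48 in Notch3IC lines. By set, the share in Notch3IC lines was 2.17%, 0.34%, 3.78% and 3.04%, against 0.15% to 0.28% in Control lines.

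Of the HIF prolyl hydroxylases, Egln3 fell and Egln1 did not pass the test. Egln3 was at 650.1, 656, 1066 and 792 normalized counts in Control and at 314, 472, 316 and 248 in Notch3IC lines. All 4 Notch3IC values lay below the lowest Control value, with the smallest step in Set 2. The fall was -1.23 on the log2 scale (SE 0.23, adjusted p = 0.034, edgeR), with set ratios, in the order of Sets 1 to 4, of -1.05, -0.48, -1.75 and -1.67. Egln1, the main oxygen-dependent hydroxylase of most cells, had 2686 ± 203 normalized counts in Control and 2735 ± 136 in Notch3IC lines (SD, n = 4), a log2 fold change of 0.03 (SE 0.085, adjusted p = 0.912, edgeR). Per length Egln1 exceeded Egln3 in both conditions, at 32.0 ± 2.4 against 12.7 ± 3.1 CPM per kb in Control and 32.6 ± 1.6 against 5.44 ± 1.53 in Notch3IC lines.

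Ddit4 was the called gene among the 7 other hypoxia targets tested. It was at 478, 960.4, 863 and 655 normalized counts in Control and at 1532, 1039.8, 4226 and 2850.5 in Notch3IC lines, so the lowest Notch3IC library, that of Set 2, was just above the highest Control library. The rise was 1.71 on the log2 scale (SE 0.43, adjusted p = 0.072, edgeR), with log2 ratios of 1.68, 0.11, 2.29 and 2.12. Ddit4 is also induced by stress other than hypoxia, and what part such stress has in its rise was not tested. Of 12 genes of the integrated stress and unfolded protein responses, a list that includes Atf4, Ddit3, Trib3, Asns and Chac1, none was called by edgeR or DESeq2, and 1 (8.33%) had an unadjusted p under 0.05 in edgeR, against 18.4% of all genes. Their median log2 fold change was -0.16, from -0.68 to 0.39, and the sets differed, with median log2 ratios of 0.29, 0.00, -0.43 and -0.35 in Sets 1 to 4 and 10 of the 12 genes higher in Set 1.

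The promoters of Egln3 and Ddit4 are shown because these genes were called on opposite sides, together with that of Ero1l. Among the members listed as other hypoxia targets, Ero1l had the smallest adjusted p of those under the fold limit. Each is the RefSeq window of GRCm38.p6 from 250 bases before to 50 bases after the annotated start, on the minus strand and printed 5′ to 3′, and capitals mark the hypoxia response core ACGTG or GCGTG on either strand.
Egln3, chr12:54203825-54204124: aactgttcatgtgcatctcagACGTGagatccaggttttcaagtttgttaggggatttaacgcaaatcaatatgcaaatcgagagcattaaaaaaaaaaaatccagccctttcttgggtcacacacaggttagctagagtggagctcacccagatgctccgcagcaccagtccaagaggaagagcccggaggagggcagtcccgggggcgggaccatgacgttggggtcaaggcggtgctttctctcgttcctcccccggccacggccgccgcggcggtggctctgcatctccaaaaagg
Ddit4, chr10:59951721-59952020: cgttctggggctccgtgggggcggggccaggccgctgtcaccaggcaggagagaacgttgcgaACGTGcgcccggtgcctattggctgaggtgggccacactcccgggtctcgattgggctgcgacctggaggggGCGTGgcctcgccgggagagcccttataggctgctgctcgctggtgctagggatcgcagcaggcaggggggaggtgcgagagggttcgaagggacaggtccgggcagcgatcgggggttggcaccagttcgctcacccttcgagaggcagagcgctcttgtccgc
Ero1l (Ero1a in RefSeq), chr14:45318523-45318822: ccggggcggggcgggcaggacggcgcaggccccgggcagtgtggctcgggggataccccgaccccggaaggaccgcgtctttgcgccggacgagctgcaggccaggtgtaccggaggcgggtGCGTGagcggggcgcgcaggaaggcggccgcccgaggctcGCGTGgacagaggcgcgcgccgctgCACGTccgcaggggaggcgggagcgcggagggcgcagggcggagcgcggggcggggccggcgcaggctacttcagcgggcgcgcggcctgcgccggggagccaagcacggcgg
In these windows Egln3 has 1 match of ACGTG, Ddit4 has 1 of ACGTG and 1 of GCGTG, and Ero1l has 1 of ACGTG and 2 of GCGTG. None of the 3 holds TGGGAA, the core recognised by the Notch partner RBPJ. In all, 32 members had 45 windows, of which 24 (53.3%) hold ACGTG, 25 (55.6%) hold GCGTG and 36 (80.0%) hold either, against 19.6%, 32.4% and 43.8% of 32817 windows. Each window was counted, also where windows of the same gene overlap, as for Aldoa and Eno1. A match can therefore be counted more than once, and the windows are not independent. TGGGAA was in 7 of the 45 member windows (15.6%) and in 25.6% of all windows. ACGTG is part of the E-box CACGTG, which was in 5 of the 45 windows and in 7.15% of all. These are matches of letters, present in genes that were higher, lower or not called, and not measured binding sites. Epas1, Ndrg1 and Slc2a3 had no window in the promoter set used here, so they are not among the 32 members with windows.

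None of the 6 remaining hypoxia targets tested was called, and 5 of them had fitted log2 fold changes below 0, though Car9 was at -0.00116 and turned to 0.0102 with the replicate block. Ero1l, which encodes an oxidase for disulfide bonds in the endoplasmic reticulum, was at 1701, 1559, 1876 and 2017 normalized counts in Control and at 1341, 1400.0, 1306 and 1387 in Notch3IC lines. The groups did not overlap, and the log2 fold change was -0.40 (SE 0.096, adjusted p = 0.063, edgeR), under the fold limit. Its adjusted p was above 0.1, and up to 0.498, in 8 of the 12 fits that left out a library or a set (edgeR). Ndrg1, a stress-responsive gene often used as a hypoxia marker, was at 1125, 1254, 999.6 and 736 in Control and at 948, 1155, 177 and 237 in Notch3IC lines. Its log2 ratios were -0.25 and -0.12 in Sets 1 and 2 but -2.49 and -1.63 in Sets 3 and 4, and the fitted value of -0.71 (SE 0.57, adjusted p = 0.564, edgeR) did not pass the test. With the replicate block it was -1.08 (adjusted p = 0.143, edgeR). Car12, a membrane carbonic anhydrase, likewise had its lowest log2 ratio in Set 3, -1.38, against -0.49, 0.27 and -0.30 in Sets 1, 2 and 4.

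Car9, a carbonic anhydrase that is one of the most used markers of HIF activity, was at 47.6, 246, 75.6 and 92.7 normalized counts in Control and at 59.2, 250.4, 80.9 and 72.6 in Notch3IC lines. Both lines of Set 2 were high, and within sets the log2 ratios ran from -0.35 to 0.31. Bnip3, which encodes a mitophagy receptor, had log2 ratios of -0.77, 0.00, -0.59 and -0.06, and Ankrd37 of -0.12, 0.06, 0.53 and 0.53. Neither passed the test, and for Bnip3 and Ankrd37 28.7% and 26.2% of exon bases overlap a gene on the opposite strand. For Ndrg1 that share is 19.2%. Adm, the gene of the peptide adrenomedullin, was below the filter, with at most 7 counts in any library. Over the 11 hypoxia members tested the median log2 fold change was -0.16, against -0.01 for all genes tested, and the median log2 ratio was -0.12, 0.00, -0.40 and -0.10 in Sets 1 to 4.

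**Figure D2:**
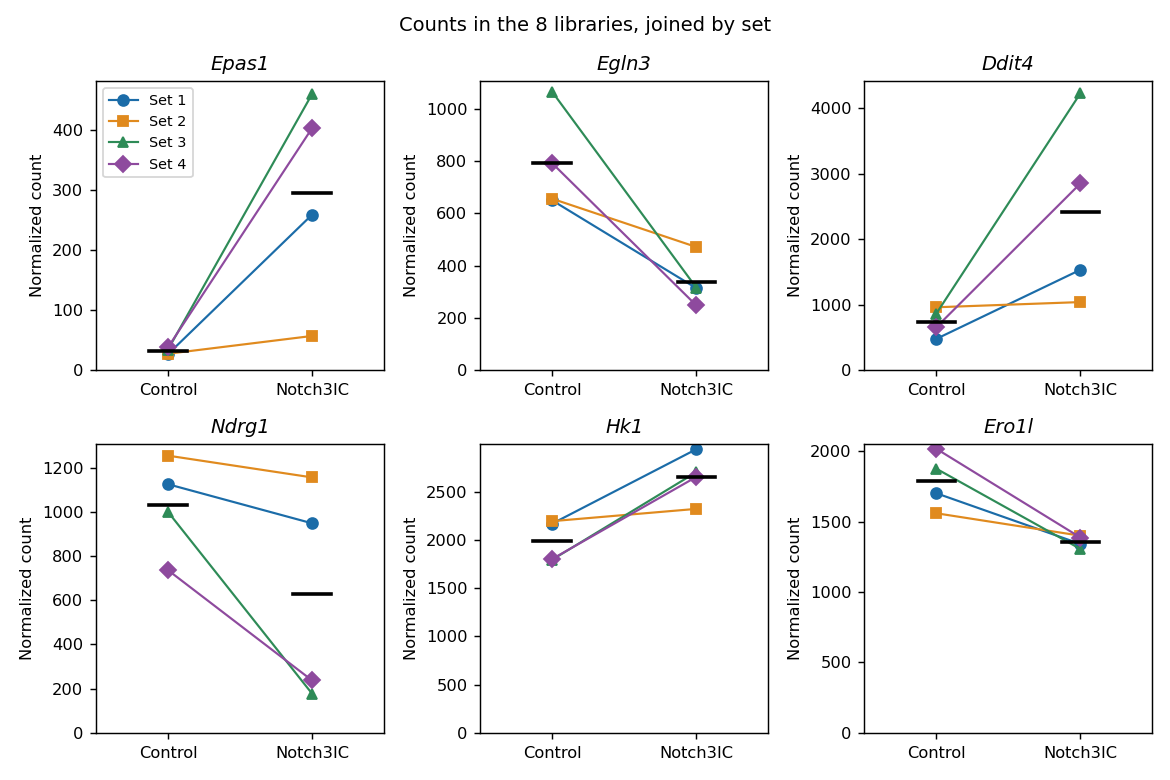
Normalized counts of 6 members in the Control and Notch3IC libraries on linear axes from 0, with the lines of each set joined and black bars at the means of 4 libraries. Epas1 and Ddit4 climb steeply in Sets 1, 3 and 4 and little in Set 2, Egln3 falls in all 4 sets, Ndrg1 drops in Sets 3 and 4, and Hk1 and Ero1l separate the conditions with smaller steps.

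The 3 calls depended on which libraries were included. Set 2, which had the smallest rise of Notch3, also had the smallest change of Epas1, Egln3 and Ddit4, and the part of the lower Notch3 level in this was not tested. Leaving out Sets 3 or 4 ended each call, and the adjusted p (edgeR) was then 0.246 and 0.309 for Epas1, 0.272 and 0.322 for Egln3, and 0.345 and 0.528 for Ddit4. Nearly all calls of the whole comparison were lost in those fits, which called 1 of 12418 genes without Set 3 and 0 of 12378 without Set 4. At an unadjusted p below 0.05 the latter fit had 1011 genes. With the replicate block all 3 calls were also lost without Set 1, with adjusted p of 0.126 for Epas1, 0.131 for Egln3 and 0.169 for Ddit4 (edgeR). Epas1 was also not called without the Control of Set 3 (0.107) or of Set 4 (0.109), and remained called in 8 of the 12 fits that left out a library or a set. Egln3 remained called in 6, and was lost without the Control of Set 3 (0.105) or Set 4 (0.116) and without the Notch3IC line of Set 3 (0.105) or Set 4 (0.109). Ddit4 remained called in 3, those without the Notch3IC line of Set 1 (0.087) or Set 2 (0.015) and without Set 2 (0.030). Its adjusted p was 0.114 without Set 1, 0.102 to 0.215 without any 1 Control library, and 0.166 and 0.204 without the Notch3IC lines of Sets 3 and 4. The log2 fold changes kept their signs in these fits, from 2.92 to 3.55 for Epas1, from -1.51 to -1.03 for Egln3 and from 1.29 to 2.11 for Ddit4.

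Many glycolysis genes were abundant, and most had small fitted changes. Of the 22 tested, 0 were called by edgeR or DESeq2, 5 (22.7%) had an unadjusted p under 0.05 in edgeR (2 higher and 3 lower) against 18.4% of all genes, and 1 had an adjusted p under 0.1. Fitted values were within 0.5 on the log2 scale for 20 of them (90.9%), against 81.0% of all genes tested. The sign was negative for 16 and positive for 6, and the median was -0.18, against -0.01 for all genes. The same median was -0.20, -0.05, -0.21 and -0.16 within Sets 1 to 4, and 12 of the genes (54.5%) were lower and 3 (13.6%) higher in all 4 sets, against 19.4% and 21.0% of all genes. With the replicate block 8 of the 22 glycolysis genes had an adjusted p under 0.1, against 27.1% of all genes, namely Hk1 and Pfkm on the higher side and Slc2a1, Gpi1, Aldoc, Tpi1, Pgk1 and Pfkfb3 on the lower side, and none reached the fold limit.

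Glucose enters through facilitative transporters. Slc2a1 (Glut1) was at 2311, 2902, 2685 and 2516 normalized counts in Control and 1733, 2755, 2040.3 and 2102 in Notch3IC lines. It was lower in each set, yet the groups overlapped, and the log2 fold change was -0.27 (SE 0.15, adjusted p = 0.368, or 0.056 with the replicate block, edgeR). Slc2a3 (Glut3) was lower in each set too, with log2 ratios from -0.49 to -0.10 and an adjusted p of 0.241 (edgeR). Per length, Slc2a1 stood at 34.2 ± 3.3 CPM per kb in Control lines and Slc2a3 at 4.31 ± 0.48 (SD, n = 4).

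Hexokinase traps glucose in the cell as glucose 6-phosphate. Hk1 was at 2169, 2195, 1796 and 1803 normalized counts in Control and at 2941, 2323, 2703 and 2654 in Notch3IC lines, so the groups did not overlap. Its log2 fold change was 0.42 (SE 0.11, adjusted p = 0.083, edgeR), under the fold limit, and the adjusted p rose to between 0.103 and 0.561 in 8 of the 12 fits that left out a library or a set. Hk2, the isoform more often tied to tumors and to hypoxia, was at 3142, 2568, 2582 and 2734 in Control and at 3381, 2574, 1989.8 and 1972 in Notch3IC lines. It was lower in Sets 3 and 4 alone, with log2 ratios of 0.11, 0.00, -0.38 and -0.47 and a fitted value of -0.15 (SE 0.18, adjusted p = 0.717, edgeR). Hk1 made up 48.2% ± 2.9 of the summed per-length level of Hk1 and Hk2 in Control and 58.4% ± 5.9 in Notch3IC lines (SD, n = 4), with 63.6% and 63.4% in Sets 3 and 4.

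The next steps rearrange and split the sugar. Gpi1, the glucose 6-phosphate isomerase, was at 9782, 9405, 8355 and 8289.6 normalized counts in Control and at 8049, 8012, 7366 and 7014 in Notch3IC lines. The groups did not overlap, and the log2 fold change was -0.24 (SE 0.099, adjusted p = 0.249, or 0.043 with the replicate block, edgeR). Of the phosphofructokinases, which catalyse the committed step, Pfkm was higher in all 4 sets at 0.23 (SE 0.10, adjusted p = 0.264, or 0.068 with the block, edgeR), Pfkp was lower in all 4 at -0.21, and Pfkl had log2 ratios of both signs. Pfkl was the main isoform, at 70.9% ± 2.6 of the summed per-length level in Control and 69.2% ± 2.2 in Notch3IC lines, and Pfkm moved from 19.1% ± 1.4 to 22.2% ± 2.1. Aldoa, the main aldolase, had log2 ratios from -0.37 to -0.04, and triose phosphate isomerase Tpi1 from -0.45 to -0.14. Tpi1 was at 18848, 18595, 19841 and 17364.5 in Control and at 13754, 16930.4, 15897 and 14706 in Notch3IC lines, without overlap, and its log2 fold change was -0.28 (SE 0.10, adjusted p = 0.188, or 0.051 with the block, edgeR).

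Aldoc, a minor aldolase, showed how much the sets differed from each other. It was at 69.4, 362, 224 and 293 normalized counts in Control and at 35.8, 185, 159.9 and 182 in Notch3IC lines, so that both lines of Set 1 were low and each Notch3IC line was below its own Control. The log2 fold change was -0.75 with an adjusted p of 0.552 and an SE of 0.58, and with the replicate block it was -0.76 with an adjusted p of 0.030 and an SE of 0.135 (edgeR). Phosphoglycerate kinase Pgk1 had an SE of 0.26 without and 0.063 with the block, and its log2 fold changes of -0.17 and -0.19 had adjusted p of 0.786 and 0.092 (edgeR).

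The counts of 4 genes of the lower pathway need care because of near-identical copies. Of 100-base windows along the transcript, 78.0% of Gapdh occur also in other annotated genes, 84 in number, and the share is 67.0% for Pgk1, 59.0% for Eno1 and 39.7% for Pgam1. At most 10% of windows were shared for each of the other members. Gapdh, usually among the most abundant messages of a cell, had per-length levels of only 8.13 ± 3.67 CPM per kb in Control and 5.76 ± 1.08 in Notch3IC lines. Eno1 had at most 11 counts in any library, whereas Gm5506, a copy of it that RefSeq lists as Eno1b, had 2809, 1933, 958 and 988 counts in Control and 1919, 1786, 1000 and 886 in Notch3IC lines. How reads with several placements were counted is not given in the sources used here, so levels of these genes are uncertain. Eno2, the neuronal enolase, had no such windows, and its log2 ratios were 0.22, -0.38, 0.44 and 0.16.

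At the end of the pathway the messages were among the most abundant of all members. Per length, Pkm (pyruvate kinase, named Pkm2 in the counts) stood at 631 ± 139, Ldha at 606 ± 53, Aldoa at 564 ± 119 and Tpi1 at 498 ± 27 CPM per kb in Control lines, and Tpi1 lay below Pkm and Ldha in every Control library, whereas the ranges of Pkm, Ldha and Aldoa overlapped. In Notch3IC lines they stood at 586 ± 127, 529 ± 43, 496 ± 54 and 409 ± 37 (SD, n = 4). Pkm had log2 ratios from -0.16 to -0.01, the narrowest range among these 4. Ldha, which makes lactate from pyruvate, was lower in each set with log2 ratios of -0.31, -0.04, -0.25 and -0.18, and its fitted value of -0.19 (SE 0.11) had an adjusted p of 0.406 (edgeR).

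**Figure D3:**
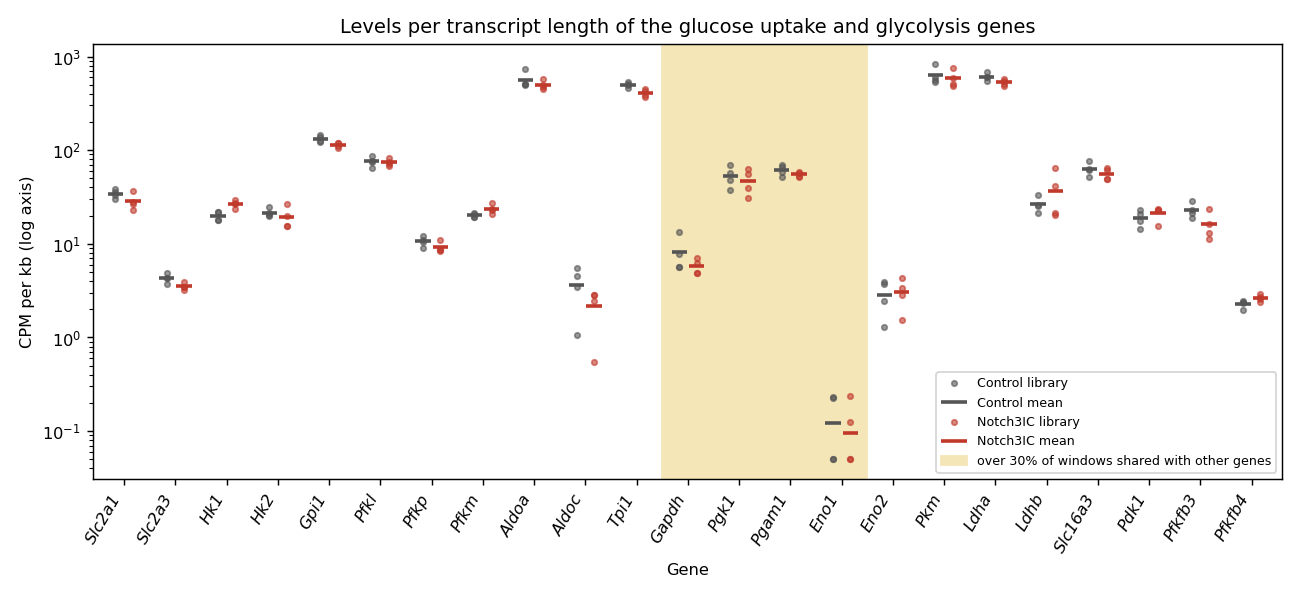
CPM per kb of transcript, on a log axis, of the 23 glucose uptake and glycolysis genes in each library (dots) with the mean per condition (bars), where libraries with no count are drawn at 0.05 and shading marks genes that share over 30% of their 100-base windows with other genes. Pkm, Ldha, Aldoa and Tpi1 are the highest in both conditions, and the Control and Notch3IC dots overlap for 19 of the 22 genes tested.

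Lactate and pyruvate fate showed 1 gene with a split between sets. Ldhb, the isoform that favours pyruvate, was at 651, 766, 1000.6 and 797 normalized counts in Control and at 649, 617, 1975 and 1249 in Notch3IC lines. Its log2 ratios were 0.00 and -0.31 in Sets 1 and 2 but 0.98 and 0.65 in Sets 3 and 4, and the fitted 0.48 (SE 0.36, adjusted p = 0.539, edgeR) did not pass the test. Ldhb made up 4.22% ± 0.90 of the summed per-length level of both lactate dehydrogenases in Control and 6.58% ± 3.77 in Notch3IC lines, with 11.4% and 7.81% in Sets 3 and 4. Slc16a3 (Mct4), which exports lactate, had log2 ratios from -0.32 to -0.04 and an adjusted p of 0.581 (edgeR). Pdk1, a kinase that shuts off pyruvate dehydrogenase, had log2 ratios of 0.08, -0.01, 0.18 and 0.38 (adjusted p = 0.709, edgeR).

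The enzymes that set the level of fructose 2,6-bisphosphate, an activator of phosphofructokinase, had opposite signs. Pfkfb3, whose enzyme mainly makes it, was at 2593, 3243, 2398 and 2131 normalized counts in Control and at 1843, 2659, 1269 and 1458 in Notch3IC lines, lower in each set. The log2 fold change was -0.52 (SE 0.24, adjusted p = 0.288, edgeR) and with the replicate block -0.56 (SE 0.11, adjusted p = 0.033, edgeR). Pfkfb4 was at 159 to 198 in Control and 196 to 239 in Notch3IC lines and higher in each set, with a log2 fold change of 0.22 (SE 0.14, adjusted p = 0.441, edgeR).

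Other genes of the same pathways gave the wider setting, as 105 listed genes of which 90 were tested. Of these, 3 were called higher (Pygl, Vldlr and Ndufa4l2) and 0 lower by edgeR, against 3.4% and 0.74% of all genes, while 7 (7.78%) were higher and 8 (8.89%) lower at an unadjusted p under 0.05, against 11.8% and 6.65% of all genes (edgeR). With the replicate block 5 were called higher, with Stc2 and Rora in addition, and 1 lower, Slc16a1, which is 5.56% and 1.11% against 5.19% and 2.53% of all genes. DESeq2 without the block called 5, the first 3 together with Stc2 (adjusted p = 0.0676) and Slc16a1 (adjusted p = 0.0646). Stc2 and Rora were low, with 4 to 38 and 3 to 46 counts per library. Of 24 genes of other glucose metabolism tested, Pygl, the liver glycogen phosphorylase, rose from 64.9 ± 21.1 to 151 ± 49 normalized counts (SD, n = 4), a log2 fold change of 1.22 (SE 0.31, adjusted p = 0.072, edgeR). It remained called in 5 of the 12 fits that left out a library or a set. Eno3, the muscle enolase, was at -0.82 (SE 0.25, adjusted p = 0.127, or 0.0507 with the replicate block) and Pck2, the mitochondrial phosphoenolpyruvate carboxykinase, at 0.54 (SE 0.20, adjusted p = 0.194, or 0.0413 with the block, edgeR). Slc16a1 (Mct1), a transporter that carries lactate in both directions, was at 5718, 9016, 6965 and 7072 normalized counts in Control and at 3318, 6745, 1819.8 and 2309 in Notch3IC lines. Its log2 fold change was -1.02 (adjusted p = 0.199, edgeR) without and -1.19 (adjusted p = 0.047) with the block, and its share of the summed per-length level with Slc16a3 was 52.4% ± 7.4 in Control and 35.7% ± 11.1 in Notch3IC lines.

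Pyruvate oxidation and the TCA cycle showed no called gene. All 24 genes tested had fitted values within 0.5, 0 were called by edgeR or DESeq2, 2 (8.33%) had an unadjusted p under 0.05 (both lower, edgeR) against 18.4% of all genes, and the median was -0.05. The 10 other HIF regulators tested, among them Arnt, Vhl and Hif1an, were also all within 0.5, with 0 called by either tool and 0 at an unadjusted p under 0.05. Myc, a regulator of many glycolytic genes, was at -0.26 (SE 0.33, adjusted p = 0.743, edgeR).

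Of 32 other HIF target genes tested, 2 were called higher and 0 lower by edgeR, with 5 (15.6%) higher and 3 (9.38%) lower at an unadjusted p under 0.05, against 11.8% and 6.65% of all genes. Vldlr, a lipoprotein receptor, rose by 1.91 on the log2 scale (SE 0.26, adjusted p = 0.0169, edgeR), with log2 ratios of 1.99, 1.07, 1.90 and 2.52, and remained called in 10 of the 12 fits that left out a library or a set. Ndufa4l2, a mitochondrial protein strongly induced by HIF, rose by 2.19 (SE 0.59, adjusted p = 0.087, edgeR), with log2 ratios of 3.21, 2.99 and 2.96 in Sets 1, 3 and 4 but -0.67 in Set 2, and remained called in 3 of the 12 fits. Plod1, a collagen lysyl hydroxylase, was at 0.63 (SE 0.17, adjusted p = 0.085) and Ak4, a mitochondrial adenylate kinase, at -0.77 (SE 0.16, adjusted p = 0.042, edgeR), both under the fold limit. The median over the 32 genes was 0.02. Vegfa, the endothelial growth factor and a standard HIF target, was at -0.33 (SE 0.14, adjusted p = 0.265, or 0.0625 with the block, edgeR), with log2 ratios of -0.17, -0.15, -0.58 and -0.36.

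**Figure D4:**
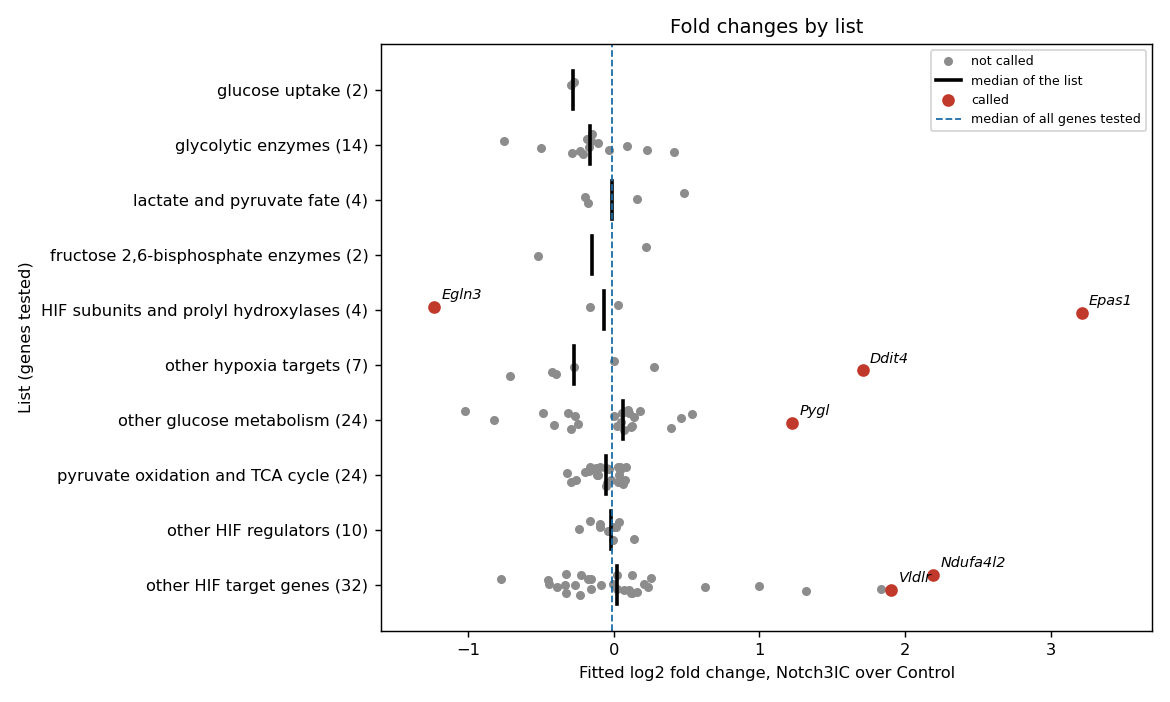
Fitted log2 fold change of each gene tested in 6 lists of members (upper rows) and 4 lists of other pathway genes (lower rows), with called genes in red and named, the median of each list as a black bar and the median of all genes tested as a dashed line. The medians of the lists lie between -0.28 and 0.06, and the 6 called genes are Epas1, Egln3, Ddit4, Pygl, Vldlr and Ndufa4l2.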

How the data were processed

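Single-end reads of polyadenylated RNA were obtained from 4 Control and 4 Notch3IC lines. Per the labels, the authors used TopHat, Cufflinks, DESeq and build mm9, and deposited raw counts of reads per gene symbol without normalization. The annotation, the strandedness and the treatment of multiply placed reads are not given in the sources used here. Library totals were 15524262 to 28208072 counts. Conditions were compared with edgeR 4.0.16 in R 4.3.3 (TMM, filterByExpr by condition, robust quasi-likelihood fit, F test, condition alone) over 12430 genes, with Benjamini-Hochberg adjustment. The SE is the size of the log2 fold change divided by the square root of F. Normalized counts are counts over the TMM-scaled library size, times the mean library size, and set ratios used a pseudocount of 0.5. Levels per length used the longest protein-coding transcript of GENCODE M21 (GRCm38), which also gave overlaps and shared windows. Because the counts were made on mm9, gene positions in that build are not used here. Pkm was matched by synonym.

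By the study's description the lines of a set are matched. Across genes, the deviations of both lines of a set from the means of their conditions had correlations of 0.804, 0.398, 0.565 and 0.409 in Sets 1 to 4. Sets 3 and 4 were less distinct from each other. The Control of Set 3 had 0.372 with the Notch3IC line of Set 4, and the Control of Set 4 had 0.361 with that of Set 3. The remaining pairs from different sets ran from -0.501 to 0.122. The replicate block stays an alternative, since the study names no set term. The common biological coefficient of variation was 26.3% without and 14.1% with the block.

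The members and the lists were chosen with earlier results of these data known. Named genes were all members and, in each list of other pathway genes, those called with or without the block and those with the largest changes in the same direction in every set, given 50 or more counts in each library of the higher condition. A gene that the rule also names is not reported here. Vegfa, Gm5506, markers, stress genes and isozyme shares were picked after values were seen. The alternatives tried were RLE and upper-quartile factors, DESeq2 1.42.0, library totals, no filter, a minimum of 10 counts per library, the block, an adjusted p under 0.05, no fold limit, and each library or set left out. The block without a fold limit, and a glycolysis median without members sharing over 30% of windows, were added after the data were seen. The edgeR fit of condition alone was tested on simulated counts without set effects, which does not cover the replicate block. Figures used Python 3.11.15 and Matplotlib 3.10.9.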

Additional observations from a re-analysis of the deposited data

Results flagged for a closer look

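In 72 groups of 4 libraries, which are the 35 members and the library totals in each condition, 5 had a library set apart from the other 3 by Dixon's criterion, where about 1 in 20 groups, or 3.6, would be so by chance. Aldoa was at 26812 normalized counts in the Control line of Set 1, against 17900.9 to 18534 in the other Control lines. In the Notch3IC line of Set 1, Pfkp was high at 1064 (others 819.8 to 846), Pdk1 low at 1860.0 (others 2765 to 2850.0) and Aldoc low at 35.8 (others 159.9 to 184.5). Car9 was high in the Notch3IC line of Set 2 at 250.4 (others 59.2 to 80.9), and the Control line of Set 2 was also the highest of its group, at 246.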

How the results depend on the processing

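The same 3 members were called under DESeq2, RLE and upper-quartile factors, library totals, both filters and the replicate block, and at an adjusted p under 0.05 the members called higher fell to 1 because Ddit4 was lost. Without the fold limit 2 members were lower, and with the block and no fold limit 4 were higher and 8 lower. Among all genes 423 were higher and 92 lower; the counts were 707 and 192 with DESeq2 (on all genes with its own filter, 753 of these being among the 12430), 645 and 315 with the block, and 1858 and 1509 with the block and no fold limit, while lower genes were 48 at an adjusted p under 0.05 and 210 without the fold limit. Leaving out 1 library or set gave 0 to 702 higher and 0 to 305 lower genes, and 0 to 2 higher and 0 to 1 lower members. With the block, leaving out Sets 1, 2, 3 and 4 gave 46, 904, 59 and 129 higher and 23, 426, 22 and 30 lower genes. Without Set 4 edgeR called 0 genes (1011 had an unadjusted p below 0.05) and 0 members (5 had one); DESeq2 was not run with sets left out. With the block no member was called when Set 1, 3 or 4 was left out (14, 10 and 12 of the 33 members had an unadjusted p below 0.05, against 3221 of 12488, 2469 of 12418 and 2420 of 12378 genes), and when Set 2 was left out Ndrg1 was the second of 2 members called lower. The glycolysis median ranged from -0.24 to -0.090 (the latter without the Control line of Set 1) and the hypoxia median from -0.41 (without the Notch3IC line of Set 2) to -0.039 (without the Control line of Set 2), and without the 4 genes that share windows the glycolysis median was -0.18. Among members never called, the sign of Egln1 reversed to -0.00893 with library totals and that of Car9 to 0.0102 with the block, with or without the fold limit. With libraries left out, log2 fold changes ranged from -0.11 to 0.042 for Pfkl, -0.15 to 0.31 for Eno2, -0.26 to 0.056 for Pkm, -0.023 to 0.078 for Egln1 and -0.70 to 0.67 for Car9. With the block, signs reversed for Pfkl without Set 1 (0.016), Eno2 without Set 3 (-0.00258) and Car9 without Set 4 (0.14). The cause of these changes was not tested. By the rule with the fold limit, the replicate block changed no member's call.

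With 4 libraries per condition, small differences of the glycolysis genes depend on whether the set is a block, which takes those with an adjusted p under 0.1 from 1 to 8 of 22, while the share of all genes goes from 6.69% to 27.1%. The counts carry no protein level, enzyme activity, lactate output or oxygen measure, and genes with copies, such as Gapdh and Eno1, have uncertain levels.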
